A study of Mus musculus with 12 samples.

Results

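The genes described here are 10 targets of the transcription factor p53: Cdkn1a, Mdm2, Plk2, Bbc3, Aen, Ccng1, Sesn2, Trp53inp1, Btg2 and Zmat3. They were taken by gene symbol from the 53379 genes of the deposited tables, and all 10 passed the filter on low counts that left 17884 genes to test. The members, and the other gene lists used below, were chosen with earlier results of these data known. Their RNA was measured in 12 RNA-seq libraries of ZHBTc4 cells, a mouse embryonic stem cell line of the 129/Ola strain. In ZHBTc4 the native Oct4 gene (Pou5f1) is disrupted. A transgene repressed by doxycycline supplies Oct4 instead, in every group. The libraries form 6 groups of 2: wild type (WT) cells and cells with a knockout of Phf6 (KO), each untreated, given doxycycline for 2 days, or given all-trans retinoic acid in medium without LIF, a cytokine that maintains stem cells, for 4 days. The doxycycline dose is 0.5 ug/ml in the sample labels and 0.5 mg/ml in the protocol text, and the retinoic acid dose is written there as 10 mM. The number of KO clones is not in the labels, nor is it said that the 2 replicates grew as separate cultures. The p-values therefore cover the spread between these libraries alone, which may be technical. Early passages were kept on fibroblast feeders and later ones on gelatin. RNA of the retinoic acid samples was purified with another kit than that of the other samples, so kit and treatment cannot be told apart in comparisons of retinoic acid with untreated cells.

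p53 is a transcription factor that is stabilized as a protein when DNA is damaged or cells are stressed, and that binds a pair of short consensus units near its target genes. Its targets stop the cell cycle, repair or protect the cell, or start apoptosis, and Mdm2, itself a target, marks p53 for degradation in a negative feedback loop. In mouse embryonic stem cells p53 is also known to promote differentiation. Phf6 is a chromatin protein with PHD-type zinc fingers.

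The promoters of the genes are shown first because the p53 consensus is what the members are known to share. RefSeq promoter windows (GRCm38.p6, 250 bases before to 50 after a start, 300 bases in all) were matched for 8 of the 10 members, with 12 windows. Both strands were searched for the 10-base p53 consensus unit without mismatch. Cdkn1a, Mdm2, Aen and Ccng1, 4 of the 8, held at least 1 unit, while 9.55% of all 27025 genes and 8.36% of all 32851 windows did. The lines below give the units in capitals with 20 bases on either side, 5′ to 3′ on the gene's strand. For Cdkn1a and Ccng1 the capitals mark 20 bases that match a pair of adjoining units with 1 mismatch in all.
Cdkn1a, chr17:29090928-29090947, plus strand: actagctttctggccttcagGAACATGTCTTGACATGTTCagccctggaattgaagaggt
Ccng1, chr11:40755462-40755481, minus strand: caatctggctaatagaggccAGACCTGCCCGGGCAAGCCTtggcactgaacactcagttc
Mdm2, chr10:117710935-117710944, minus strand: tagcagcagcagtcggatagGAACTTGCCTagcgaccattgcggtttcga
Aen, chr7:78895937-78895946, plus strand: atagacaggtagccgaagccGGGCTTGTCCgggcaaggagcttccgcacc

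The 20-base match with at most 1 mismatch was in 0.0883% of all windows. The Cdkn1a match began at position -51 from the upstream of its 2 RefSeq starts. Another exact unit of Cdkn1a began at -73, so that 2 exact units stood 0 to 13 bases apart, as in 0.0731% of all windows. The unit at -51 is the first part of the 20-base match printed above. In Ccng1 the exact unit is the last part of the printed match and began at -185. The Mdm2 unit began at -186. The Aen unit began at 10 from the start of 1 window and at -121 from that of the other, and both are the same bases. Plk2, Bbc3, Sesn2 and Btg2 had no exact unit in their windows. Plk2 and Btg2 instead held the cyclic AMP response element TGACGTCA, found in 1.79% of all windows. That motif was chosen after the windows were read, and it is printed in capitals in the next lines. None of these matches overlapped the other kind, and a match is a description of letters, not of binding.
Plk2, chr13:110394982-110394989, plus strand: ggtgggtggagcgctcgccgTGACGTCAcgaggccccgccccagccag
Btg2, chr1:134079314-134079321, minus strand: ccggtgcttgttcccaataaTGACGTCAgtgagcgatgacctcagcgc

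**Figure D1:**
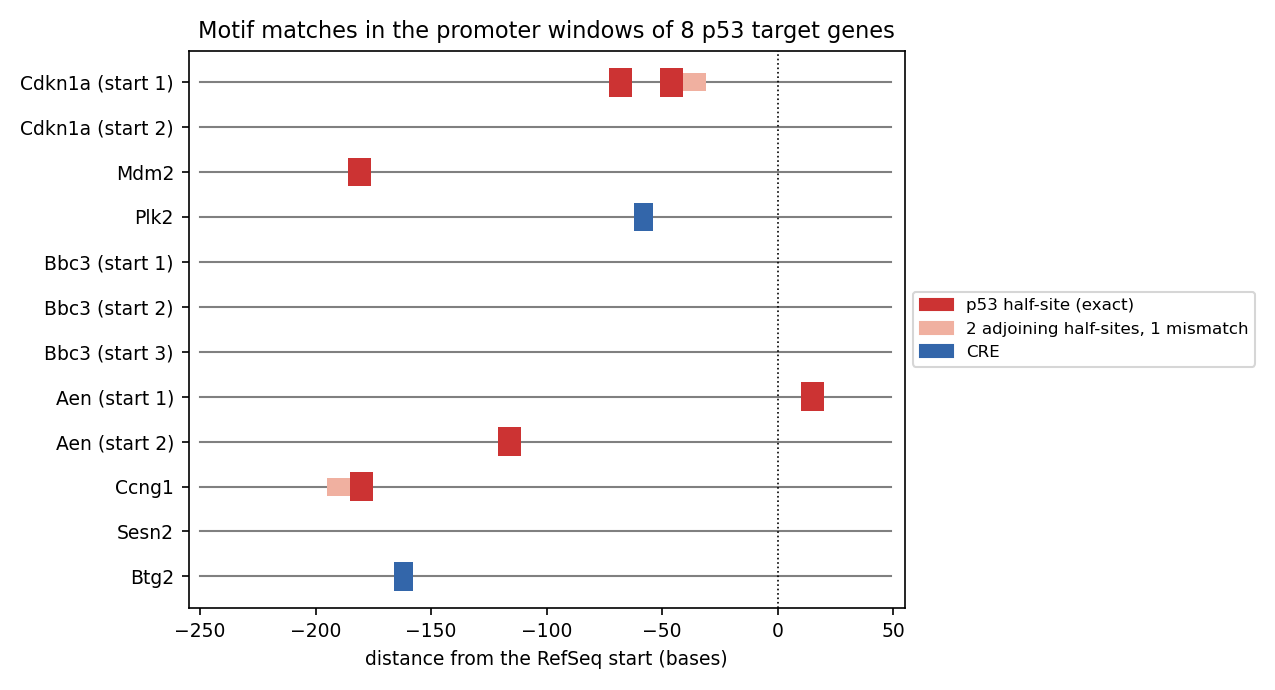
Position of motif matches in the 12 promoter windows of 8 members, in bases from the RefSeq start (dotted line at 0), with each window as a grey line. Red boxes are exact 10-base p53 units, pale red boxes 20 bases with 1 mismatch and blue boxes the cyclic AMP response element. The upstream Cdkn1a window carries 2 exact units, and Plk2 and Btg2 carry the blue box only.

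Libraries held 15799517 to 21441996 counted reads. Phf6 was at 40.2 and 42.8 CPM (counts scaled to library size with TMM factors) in untreated WT and 4.49 and 6.50 in untreated KO. It was lower in KO in all 3 conditions, with log2 changes of -2.91 untreated, -2.06 with doxycycline and -2.77 with retinoic acid. Pou5f1 fell with doxycycline from 1013 and 1031 to 34.1 and 46.3 CPM in WT, and from 1193 and 1196 to 13.03 and 14.3 in KO. With retinoic acid it was at 973 to 1081 CPM in both lines. The summed level of 7 stem cell markers was 6481 to 7167 CPM in the 4 untreated libraries, where the label names stem cells. With doxycycline it was 361 to 489 CPM and with retinoic acid 1747 to 2850. Genes of chromosome 1, which holds Btg2, stood apart in KO cells: 840 of them had a median log2 difference to WT of -0.47, -0.48 and -0.47 in the 3 conditions, and 13311 genes of the other autosomes had medians of 0.04, 0.02 and 0.01.

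In untreated WT cells the members spanned more than a factor of 10 in transcript level. Between genes the deposited TPM (transcript abundances that account for length) were compared. Aen was highest at 120.2 ± 0.75 TPM (SD, n = 2), followed by Mdm2 at 66.0 ± 2.87 and Ccng1 at 48.2 ± 0.37. Sesn2 at 38.5 ± 1.58 and Trp53inp1 at 37.2 ± 5.72 came next, and their libraries overlapped. Btg2 was at 26.4 ± 0.17 TPM, Cdkn1a at 18.5 ± 0.13, Zmat3 at 15.4 ± 0.75, Bbc3 at 10.2 ± 0.30 and Plk2 at 9.61 ± 0.11. Apart from Sesn2 and Trp53inp1, no neighbours in that order overlapped. The order differed with treatment. In KO cells with doxycycline Mdm2 led at 120.2 ± 5.10 TPM with Ccng1 at 118.8 ± 9.60, which overlapped, followed by Aen at 100.8 ± 0.94 and Cdkn1a at 99.3 ± 1.31. With retinoic acid Ccng1 led in both lines, at 136 ± 6.12 TPM in WT and 138 ± 2.66 in KO.

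**Figure D2:**
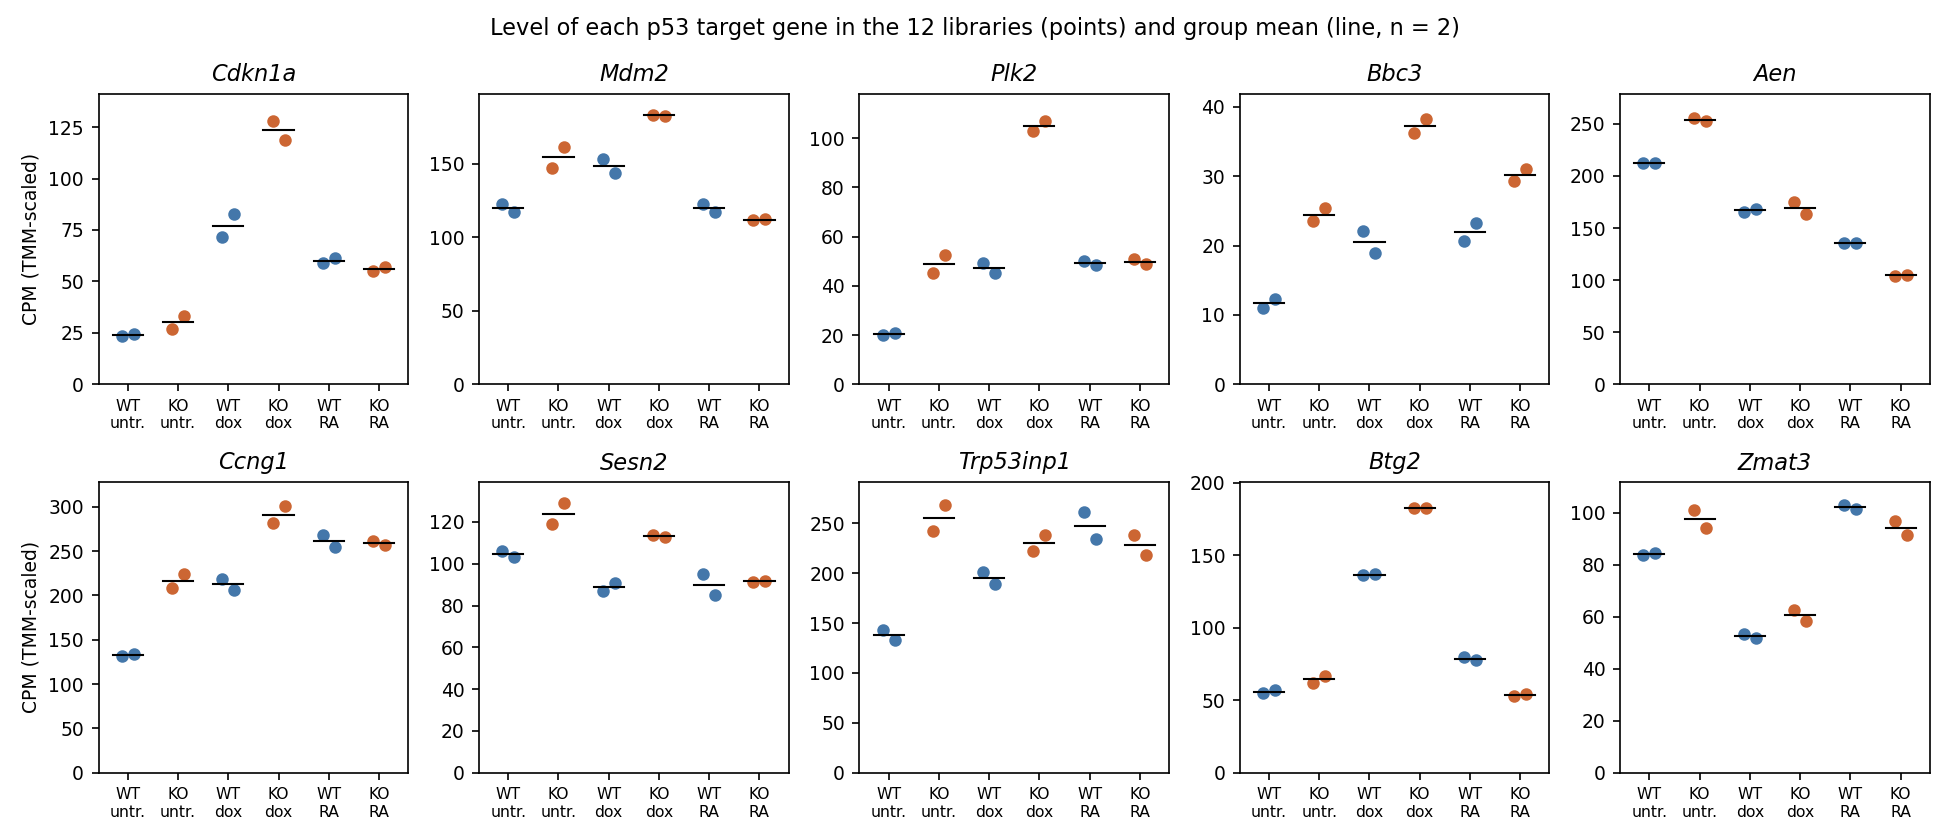
Level of each member in every library (points; blue WT, orange KO) as TMM-scaled CPM, with the mean of each group of 2 as a line and each axis starting at 0. Cdkn1a ranged from 23.2 CPM in an untreated WT library to 128 in a KO library with doxycycline, and Plk2 from 19.9 to 107.

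All 10 members were higher in untreated KO than in untreated WT cells. For each, both KO libraries lay above both WT libraries, as they did for 33.7% of all genes, with 29.8% fully below. The largest differences were in Plk2, Bbc3, Trp53inp1 and Ccng1, at 1.63- to 2.39-fold, and the other 6 differed by 1.15- to 1.29-fold. Of all genes tested, 30.0% differed by the same rule, edgeR's quasi-likelihood test with an adjusted p under 0.05 over all genes. Higher calls alone made up 15.2% of genes and lower calls 14.9%. The members' median log2 difference was 0.35, and the median over all genes was 0.02. Because the members were chosen with earlier results known, such comparisons with all genes, here and below, describe these 10 genes. They are not a test of p53 targets as a group. In bulk RNA, fewer cells of a type and less RNA per cell cannot be told apart.

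Among the members that act on the cell cycle, Cdkn1a encodes p21, an inhibitor of cyclin-dependent kinases. Cdkn1a was at 23.2 and 24.7 CPM in WT and 27.0 and 33.4 in KO. Its log2 difference was 0.34 ± 0.097 (SE; adjusted p = 0.0107). Plk2, a polo-like kinase induced by stress, was at 19.9 and 20.9 CPM in WT and 45.0 and 52.4 in KO. The Plk2 difference of 1.26 ± 0.081 (adjusted p = 1.45e-12) was the largest of the 10. Ccng1, the cyclin G1 gene, whose product works with a phosphatase on Mdm2, was at 131.5 and 134 CPM in WT and 208.5 and 225 in KO, a difference of 0.71 ± 0.054 (adjusted p = 4.22e-11). Btg2, an antiproliferative gene that also acts in mRNA decay, was at 54.8 and 57.0 CPM in WT and 62.0 and 66.8 in KO. That difference was 0.21 ± 0.058 (adjusted p = 0.00788), opposite in sign to the median of the chromosome on which Btg2 lies.

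Among the members that act in apoptosis, Bbc3 encodes Puma, a BH3-only protein that triggers mitochondrial cell death. Bbc3 was at 11.0 and 12.3 CPM in WT and 23.5 and 25.4 in KO, a log2 difference of 1.07 ± 0.105 (adjusted p = 4.87e-09). Trp53inp1, whose product promotes p53-dependent cell death and autophagy, was at 133 and 143 CPM in WT and 242.5 and 268 in KO. It differed by 0.89 ± 0.065 (adjusted p = 7.44e-10). Aen, an exonuclease gene that acts in apoptosis, was at 212 and 213 CPM in WT and 253 and 256 in KO, a difference of 0.26 ± 0.047 (adjusted p = 9.49e-05).

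Of the remaining members, Mdm2, the ubiquitin ligase that limits p53, was at 117 and 122 CPM in WT and 147 and 161 in KO. Its log2 difference was 0.37 ± 0.054 (adjusted p = 5.08e-06). Sesn2, a stress-induced inhibitor of mTORC1 signalling, was at 103 and 106 CPM in WT and 119 and 129 in KO, a difference of 0.24 ± 0.057 (adjusted p = 0.00152). Zmat3, an RNA-binding zinc finger gene, was at 83.8 and 84.7 CPM in WT and 94.3 and 101 in KO, a difference of 0.21 ± 0.057 (adjusted p = 0.00448). The calls of Cdkn1a, Btg2, Sesn2 and Zmat3 depended on single libraries, while those of Aen and Mdm2 were kept in all 22 alternatives. Without WT replicate 1 the calls of Cdkn1a (0.28, adjusted p = 0.122), Btg2 (0.16, 0.12) and Zmat3 (0.19, 0.0577) were lost. Without KO replicate 2 those of Cdkn1a (0.17, adjusted p = 0.314), Btg2 (0.14, 0.194) and Sesn2 (0.17, 0.082) were lost, and without KO replicate 1 that of Zmat3 (0.15, 0.132). With the authors' effective lengths as offsets, Cdkn1a (0.25, adjusted p = 0.113) and Zmat3 (0.14, 0.281) were not called, and on log2(TPM + 1) with limma they were not either (adjusted p = 0.0785 and 0.254).

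Marker sums moved with the genotype in untreated cells. The stem cell markers summed to 6481 to 6590 CPM in WT and 7131 to 7167 in KO, and the primitive endoderm markers to 8.12 to 8.78 and 6.86 to 6.93. The 8 trophectoderm markers summed to 121 to 123 CPM in WT and 80.4 to 86.2 in KO, with 5 of 7 tested lower in KO. The 8 fibroblast markers summed to 25.5 to 28.3 CPM in WT and 34.4 to 36.9 in KO, with Thy1 higher and Dcn lower among 7 tested and Lum at 0 counts in both KO libraries. The neural markers summed to 423 to 431 CPM in WT and 409 to 411 in KO. The part of any of these cell types in the members' differences was not tested.

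With doxycycline, 9 of the 10 members were higher in KO than in WT cells, and Aen did not pass the test. Of all genes 37.0% differed, 17.9% higher and 19.1% lower. Higher genes made up 48.3% of those that differed, or 60.6% with upper-quartile factors in place of TMM, and every member's call was the same under both.  The members' median log2 difference was 0.38 and that of all genes was 0.005. Plk2 again differed most, at 45.3 and 49.4 CPM in WT and 103 and 107 in KO (1.15 ± 0.067, adjusted p = 6.34e-14). Bbc3 was at 18.9 and 22.1 CPM in WT and 36.2 and 38.2 in KO (0.87 ± 0.090, adjusted p = 8.16e-09). Cdkn1a was at 71.5 and 82.6 CPM in WT and 119 and 128 in KO (0.68 ± 0.072, adjusted p = 1.06e-07). For each of these 3 genes the KO libraries lay far above the WT libraries, beyond the spread of either group.

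Ccng1 was at 206 and 219 CPM in WT and 281.5 and 301 in KO with doxycycline, a log2 difference of 0.46 ± 0.052 (adjusted p = 4.07e-08). Btg2 was at 136 and 137 CPM in WT and at 182.5 and 183 in KO (0.42 ± 0.050, adjusted p = 9.62e-08). Sesn2 was at 87.1 and 90.9 CPM in WT and 113 and 114 in KO (0.35 ± 0.058, adjusted p = 1.92e-05). For these 3 genes too the lines did not overlap, where 32% of all genes lay fully above and 31.5% fully below. Mdm2 was at 143 and 153 CPM in WT and 182.5 and 183 in KO, a difference of 0.30 ± 0.053 (adjusted p = 3.12e-05). Trp53inp1 was at 189.6 and 201 CPM in WT and 223 and 239 in KO (0.24 ± 0.064, adjusted p = 0.00493). Zmat3 was at 51.9 and 53.4 CPM in WT and 58.5 and 62.6 in KO (0.20 ± 0.061, adjusted p = 0.00919). Aen was at 166 and 169 CPM in WT and 163 and 175 in KO, so its groups overlapped. The Aen difference was 0.02 with a 95% interval of -0.08 to 0.12 (adjusted p = 0.828).

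The calls of Trp53inp1 and Zmat3 with doxycycline depended on single libraries. Without WT replicate 2 both were lost (0.19, adjusted p = 0.0858, and 0.17, adjusted p = 0.0922), without KO replicate 2 that of Trp53inp1 (0.19, adjusted p = 0.0744) and without KO replicate 1 that of Zmat3 (0.15, adjusted p = 0.115). Zmat3 was also lost with effective-length offsets (0.12, adjusted p = 0.342) and on the TPM scale (0.15, 0.316), and Trp53inp1 on the TPM scale (0.33, 0.0511). Pou5f1 was 1.57 lower on the log2 scale in KO than in WT cells with doxycycline. The trophectoderm markers summed to 2354 to 2686 CPM in WT and 1512 to 1616 in KO, with 6 of 7 tested lower in KO. The stem cell markers summed to 466 to 489 CPM in WT and 361 to 371 in KO, and the primitive endoderm markers to 56.3 to 57.0 and 39.6 to 39.9. The primitive endoderm markers went both ways: Gata6 and Dab2 were lower in KO, Foxa2 and Pdgfra higher, and Gata4 and Sox17 did not pass. The neural markers summed to 112 to 117 CPM in WT and 251.5 to 261 in KO, with 2 of 6 higher and 1 lower. The fibroblast markers summed to 15.09 to 15.80 CPM in WT and 29.2 to 34.0 in KO, with 2 of 7 tested higher. Whether these differences bear on the members was not tested.

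With retinoic acid, 1 member was higher in KO than in WT cells, 2 were lower and 7 did not pass the test. Of all genes 38.8% differed, 18.8% higher and 20% lower. The members' median log2 difference was -0.10, and that of all genes was -0.005. Bbc3 was the gene that was higher, at 20.7 and 23.2 CPM in WT and 29.3 and 31.0 in KO (0.46 ± 0.087, adjusted p = 0.000104). Btg2 was lower, at 77.7 and 79.9 CPM in WT and 53.2 and 54.3 in KO (-0.55 ± 0.055, adjusted p = 3.65e-09). Aen was also lower, at 135 and 136 CPM in WT and 104 and 105 in KO (-0.37 ± 0.049, adjusted p = 5.06e-07). In these 3 genes the groups did not overlap, where 35.1% of all genes lay fully above and 36.2% fully below. Btg2 thus lay above WT in KO cells of 2 conditions and below it with retinoic acid, and its difference with retinoic acid had the sign of the chromosome 1 median.

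Plk2, which differed most in the other conditions, was at 48.5 and 50.3 CPM in WT and 48.7 and 51.1 in KO with retinoic acid. Its log2 difference was 0.01 with a 95% interval of -0.13 to 0.15 (adjusted p = 0.895). Cdkn1a was at 59.1 and 61.2 CPM in WT and 55.1 and 57.1 in KO, a difference of -0.10 (-0.26 to 0.06; adjusted p = 0.325). Both Cdkn1a libraries of KO lay below those of WT, but the difference did not pass. Mdm2 differed by -0.10 (-0.21 to 0.01), Ccng1 by -0.01 (-0.12 to 0.09) and Sesn2 by 0.02 (-0.09 to 0.14). Trp53inp1 differed by -0.12 (-0.25 to 0.01) and Zmat3 by -0.12 (-0.23 to -0.01), with adjusted p = 0.153 and 0.0919. Trp53inp1 was called lower without WT replicate 2 (-0.19, adjusted p = 0.0457) and with no filter on low counts (-0.14, 0.0378). Zmat3 was called lower with only the groups compared (-0.11, adjusted p = 0.0343) and without chromosome 1 genes (-0.14, 0.0344). The primitive endoderm markers summed to 371 to 401 CPM in WT and 779 to 824 in KO, all 6 higher in KO. The stem cell markers summed to 2668 to 2850 in WT and 1747 to 1778 in KO, with 6 of 7 lower, and the part of such differences was not tested.

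**Figure D3:**
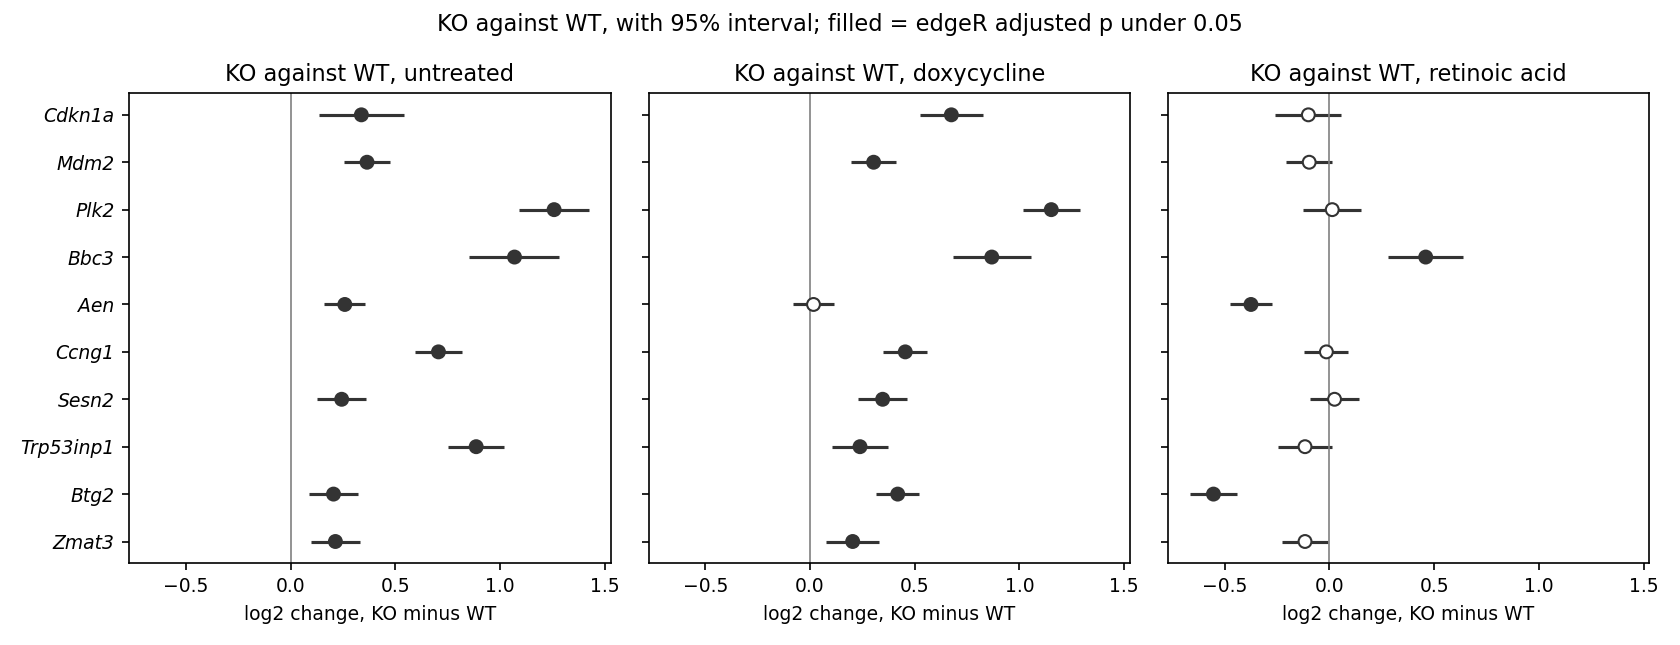
Log2 difference of each member between KO and WT cells in the 3 conditions, with 95% intervals; filled points passed edgeR's test. All 10 points lie above 0 in untreated cells, from 0.21 to 1.26, 9 pass with doxycycline, and with retinoic acid Bbc3 alone passes above 0.

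Doxycycline, and with it the loss of Oct4, changed all 10 members in both lines. In WT cells 7 rose and 3 fell, where 63.0% of all genes changed, 31.8% up and 31.3% down. In KO cells 6 rose and 4 fell, where 62.3% changed, 31.2% in each direction. With upper-quartile factors the median of all genes in the WT response was -0.11 in place of 0, and no member's direction or call differed in it. Cdkn1a rose most, by 1.69 ± 0.087 in WT (adjusted p = 6.94e-14) and 2.03 ± 0.081 in KO (adjusted p = 7.53e-16). Btg2 rose by 1.29 ± 0.055 in WT and 1.503 ± 0.054 in KO. Plk2 rose by 1.21 ± 0.081 in WT and 1.11 ± 0.067 in KO. Treated and untreated libraries of these genes did not overlap in either line. Most genes behaved so: in WT 39.8% lay fully above and 39.3% fully below, and in KO 39.1% and 39.6%.

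Bbc3 rose with doxycycline by 0.81 ± 0.106 in WT and 0.61 ± 0.089 in KO. Ccng1 rose by 0.68 ± 0.054 in WT and 0.43 ± 0.052 in KO. Mdm2 rose by 0.31 ± 0.054 in WT and 0.25 ± 0.053 in KO, the smallest rises shared by both lines. Zmat3 fell by 0.68 ± 0.060 in WT and fell by 0.69 ± 0.058 in KO. Aen fell by 0.34 ± 0.048 in WT and fell by 0.59 ± 0.048 in KO. Sesn2 fell by 0.23 ± 0.058 in WT and fell by 0.13 ± 0.057 in KO, and the KO value was near the threshold (adjusted p = 0.0472). Trp53inp1 rose by 0.50 ± 0.065 in WT and fell by 0.15 ± 0.063 in KO (adjusted p = 0.0485). The KO calls of Sesn2 and Trp53inp1 were lost without KO untreated replicate 2 (adjusted p = 0.42 and 0.432) and in several other alternatives, among them log2(TPM + 1) with limma, where Sesn2 was at 0.

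The doxycycline responses of the lines were compared with the interaction term of the same fit, KO minus WT. This term equals the KO against WT difference with doxycycline minus the untreated one, so it uses the untreated differences again. It was negative for 3 members, positive for 1 and did not pass for 6, where 19.2% of all genes passed, 9.11% higher and 10.0% lower. Trp53inp1 differed most, by -0.65 ± 0.091 (adjusted p = 2.09e-05). Ccng1 differed by -0.25 ± 0.074 (adjusted p = 0.0169) and Aen by -0.24 ± 0.068 (adjusted p = 0.0111). Btg2 differed by 0.21 ± 0.077, at the threshold (adjusted p = 0.049992), and that call was lost in 17 of 21 alternatives. The Ccng1 call was lost in 7 of 22, without WT untreated replicate 1, KO untreated replicate 2, WT doxycycline replicate 1 or KO doxycycline replicate 1 among them (adjusted p = 0.0823, 0.137, 0.0799 and 0.0662). Cdkn1a differed by 0.34 with a 95% interval of 0.08 to 0.59 (adjusted p = 0.0567), and it passed in 9 of 22 alternatives. One of these was the replicate block (0.34, adjusted p = 0.0381), and others left out KO untreated replicate 2 (0.50, adjusted p = 0.00625), WT doxycycline replicate 2 (0.45, 0.00876) or KO doxycycline replicate 2 (0.39, 0.0352). Without KO untreated replicate 1 it was at 0.20 (adjusted p = 0.316). Plk2 differed by -0.11 (-0.32 to 0.11) and Bbc3 by -0.20 (-0.49 to 0.09). Of all genes that passed, 47.6% had the larger response in KO, and 61.9% with upper-quartile factors, under which Aen (-0.18, adjusted p = 0.0573) and Ccng1 (-0.19, 0.0812) did not pass.

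With retinoic acid, 7 members rose in WT cells and 2 fell, where 73.9% of all genes changed, 41.0% up and 32.9% down. In KO cells 3 rose and 5 fell, where 75.5% changed, 40.9% up and 34.6% down. On log2(TPM + 1) with limma 7 members rose and 1 fell in KO, and none fell in WT. The median of all genes was itself above 0, at 0.12 in WT and 0.10 in KO, and on log2(TPM + 1) it was 0.43 and 0.42. Among genes that changed, 55.5% rose in WT and 54.2% in KO, and 80.2% and 76.9% on the TPM scale. Changes relative to the median of all genes are therefore given for each member that changed. Cdkn1a rose by 1.33 ± 0.087 in WT and 0.89 ± 0.085 in KO, which is 1.21 and 0.79 above the median. Plk2 rose by 1.28 ± 0.079 in WT (adjusted p = 1.97e-14), 1.16 above the median, while the KO change was 0.03 with a 95% interval of -0.11 to 0.18 (adjusted p = 0.676). On the TPM scale the KO change of Plk2 passed (0.56), and was 0.14 above the median.

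Ccng1 rose by 0.98 ± 0.053 in WT and 0.26 ± 0.052 in KO, which is 0.86 and 0.16 above the median. Bbc3 rose by 0.91 ± 0.103 in WT and 0.30 ± 0.089 in KO, which is 0.79 and 0.20 above the median; the KO call was lost without KO untreated replicate 1 (0.22, adjusted p = 0.0828) or KO retinoic acid replicate 2 (0.25, adjusted p = 0.0509). Trp53inp1 rose by 0.84 ± 0.065 in WT and fell by 0.16 ± 0.063 in KO (adjusted p = 0.0266). Btg2 rose by 0.50 ± 0.056 in WT and fell by 0.26 ± 0.057 in KO (adjusted p = 0.000177). Zmat3 rose by 0.28 ± 0.055 in WT, a call lost with effective-length offsets (0.12, adjusted p = 0.21), and its KO change was -0.05 (-0.17 to 0.06). Relative to the median the WT changes of Trp53inp1, Btg2 and Zmat3 were 0.72, 0.38 and 0.16, and the KO changes -0.26, -0.37 and -0.15. On the TPM scale Btg2 (0.26, adjusted p = 0.00333) and Zmat3 (0.37, 0.00588) passed as rises in KO and Trp53inp1 was at 0.08 without passing. Relative to the median there these KO values were -0.16, -0.05 and -0.34. The KO call of Trp53inp1 was also lost without KO untreated replicate 2 (adjusted p = 0.169) or KO retinoic acid replicate 2 (adjusted p = 0.194).

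Aen fell by 0.65 ± 0.048 in WT and fell by 1.28 ± 0.049 in KO, the largest decrease of a member. Relative to the median it was at -0.77 and -1.38, and on the TPM scale at -0.50 in WT and -1.09 in KO, although the WT change there did not pass. Sesn2 fell by 0.22 ± 0.057 in WT and fell by 0.44 ± 0.057 in KO, at -0.34 and -0.54 relative to the median; on the TPM scale the changes were 0.29 and 0.08, or -0.13 and -0.33 relative to the median. Mdm2 changed by -0.002 (-0.11 to 0.11) in WT and fell by 0.46 ± 0.054 in KO, at -0.12 and -0.57 relative to the median. On the TPM scale Mdm2 passed as a rise in both, at 0.53 and 0.21, or 0.10 and -0.21 relative to the median.

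The retinoic acid responses of the lines differed for 9 of the 10 members, all with the lower response in KO. The interaction equals the KO against WT difference with retinoic acid minus the untreated one, so it uses the untreated differences again. For Plk2 and Ccng1 the differences with retinoic acid were 0.01 and -0.01, beside 1.26 and 0.71 untreated. Btg2 and Aen were also lower in KO with retinoic acid (-0.55 and -0.37). Of all genes 17.7% passed this interaction test, 7.31% with the higher and 10.3% with the lower response in KO. The members' median was -0.62 and that of all genes -0.03. Plk2 differed most, by -1.24 ± 0.106 (adjusted p = 7.21e-10), then Trp53inp1 by -1.002 ± 0.090 (adjusted p = 4.08e-08), Btg2 by -0.76 ± 0.080 and Ccng1 by -0.72 ± 0.074. Aen differed by -0.63 ± 0.068, Bbc3 by -0.61 ± 0.137, Mdm2 by -0.46 ± 0.076 and Zmat3 by -0.33 ± 0.078. Cdkn1a differed by -0.44 ± 0.123 (adjusted p = 0.0157), and Sesn2 did not pass (-0.22, -0.39 to -0.05; adjusted p = 0.0594). With effective-length offsets 6 members passed, and Cdkn1a (-0.32, adjusted p = 0.169), Mdm2 (-0.32, 0.0599) and Zmat3 (-0.24, 0.244) did not. The Cdkn1a call was lost in 6 alternatives, among them those without WT untreated replicate 1 (-0.39, adjusted p = 0.095), KO untreated replicate 2 (-0.27, 0.175), WT retinoic acid replicate 2 (-0.41, 0.0586) or KO retinoic acid replicate 1 (-0.41, 0.0663). Sesn2 passed where only the groups compared were fitted (-0.20, adjusted p = 0.0352), and without WT retinoic acid replicate 2 (-0.29, adjusted p = 0.0207), KO untreated replicate 1 (-0.27, 0.0459), KO doxycycline replicate 1 (-0.22, 0.046) or KO doxycycline replicate 2 (-0.22, 0.041). On the TPM scale 5 members passed: Plk2, Trp53inp1, Btg2, Ccng1 and Aen.

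**Figure D4:**
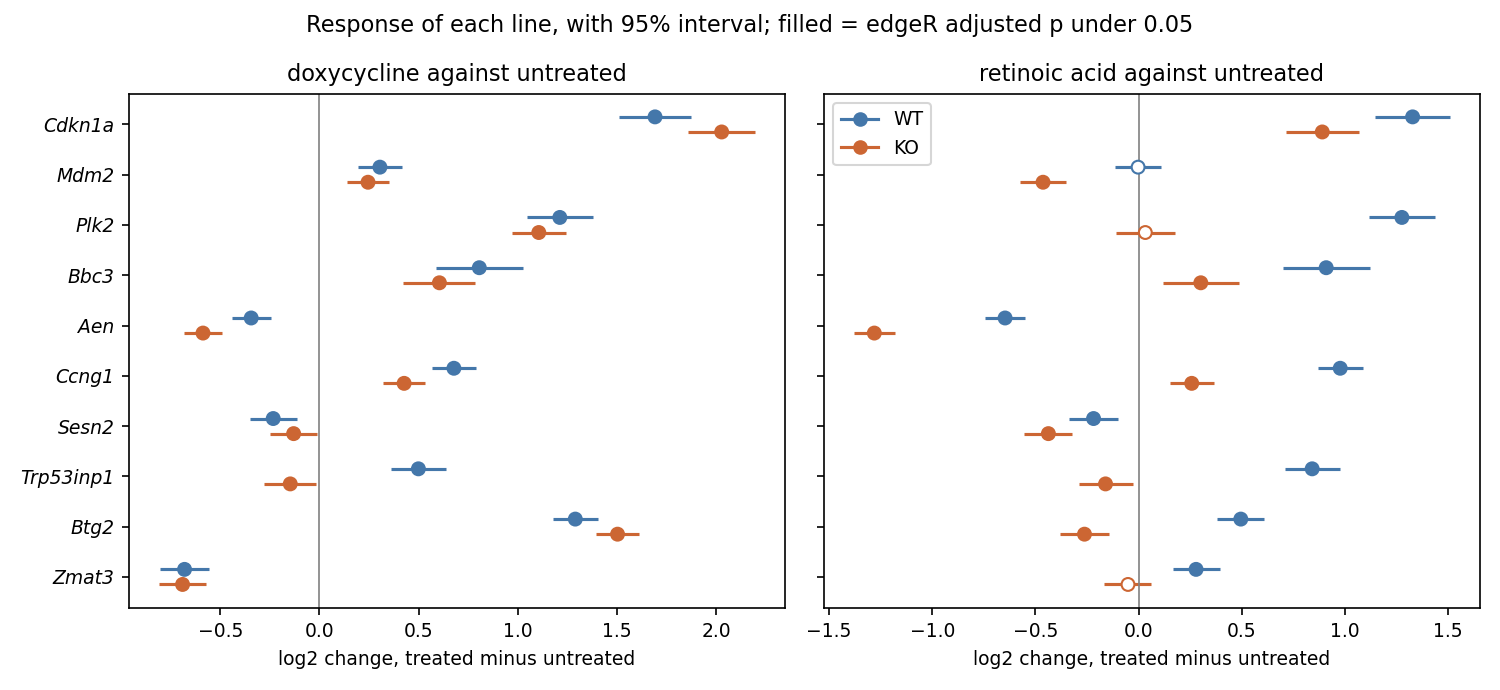
Log2 change of each member with doxycycline (left) and retinoic acid (right) in WT (blue) and KO (orange) cells, with 95% intervals; filled points passed edgeR's test. With doxycycline the lines differ most in Trp53inp1 (0.50 in WT, -0.15 in KO), and with retinoic acid every KO point lies left of its WT point.

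The transcript of p53 itself, Trp53, was higher in KO cells untreated and with doxycycline and lower with retinoic acid, and both treatments lowered it in both lines. Trp53 was at 396 and 404 CPM in untreated WT and 458 and 460.5 in untreated KO cells, a log2 difference of 0.20 ± 0.051 (adjusted p = 0.0033). With doxycycline it was at 199 and 201 CPM in WT and 245 and 254 in KO (0.32 ± 0.053, adjusted p = 1.87e-05). With retinoic acid it was at 167.5 and 191 CPM in WT and 112 and 115 in KO (-0.66 ± 0.054, adjusted p = 8.85e-11). The untreated call was lost without WT untreated replicate 1 (adjusted p = 0.0688), with effective-length offsets (0.0553) and on the TPM scale (0.0505). With doxycycline Trp53 fell by 0.998 ± 0.053 in WT and fell by 0.88 ± 0.052 in KO. With retinoic acid it fell by 1.16 ± 0.053 in WT and fell by 2.02 ± 0.054 in KO, and these responses differed by -0.86 ± 0.074 (adjusted p = 1.02e-09). The doxycycline responses differed by 0.12 (adjusted p = 0.303).

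Mdm4, a partner of Mdm2 that binds and inhibits p53 and lies on chromosome 1, was at 274 and 285.5 CPM in untreated WT and 253.5 and 265 in untreated KO. That difference of -0.11 did not pass (adjusted p = 0.115), though it did where only the untreated libraries were fitted (adjusted p = 0.0285) or without KO doxycycline replicate 1 (0.0419). With doxycycline Mdm4 was at 178 and 185 CPM in WT and 131 and 143 in KO (-0.41 ± 0.054, adjusted p = 5.47e-07). With retinoic acid it was at 303 and 315 CPM in WT and 230.5 and 246 in KO (-0.38 ± 0.051, adjusted p = 9.42e-07). The chromosome 1 medians beside these are -0.48 and -0.47.

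Of 24 genes listed as regulators of p53, 6 were higher and 5 lower in the untreated KO libraries, beside 15.2% and 14.9% of all genes. The list median was 0.08 and that of all genes 0.02. Over 22 alternatives 2 to 7 were higher and 3 to 6 lower, with 2 higher under effective-length offsets. Listed genes of chromosome 1 are absent from the alternative fitted without that chromosome. The largest difference was in Cdkn2a, the locus of Ink4a and of Arf, which blocks Mdm2. Cdkn2a was at 17.9 and 18.2 CPM in WT and 2.80 and 3.65 in KO (-2.49 ± 0.173, adjusted p = 1.78e-10). Cop1, a ubiquitin ligase for p53, was at 90.5 and 92.9 CPM in WT and 49.2 and 51.9 in KO (-0.86 ± 0.060). Trp53bp2, whose product ASPP2 binds p53, was at 59.2 and 61.1 CPM in WT and 39.6 and 41.2 in KO (-0.57 ± 0.062). Cop1 and Trp53bp2 lie on chromosome 1. Daxx, a histone chaperone partner, differed by -0.39 ± 0.060, and Aurka, a mitotic kinase, by -0.27 ± 0.052. Trp73, a p53 family member, was at 5.06 and 5.17 CPM in WT and 9.23 and 9.91 in KO (0.90 ± 0.177); that call was lost with effective-length offsets (0.49, adjusted p = 0.109) and on the TPM scale (0.37, 0.0587). Ppp1r13l, the inhibitory iASPP gene, differed by 0.38 ± 0.114, and Atr, a DNA damage kinase, by 0.27 ± 0.062. Rchy1, another p53 ubiquitin ligase, differed by 0.19 and Trp53bp1 by 0.16, and both calls were lost in several alternatives, without each single untreated library in turn among them (adjusted p = 0.0654 to 0.249). With effective-length offsets Trp53bp1 was at -0.043. Ppp1r13l was lost without WT untreated replicate 2 or KO untreated replicate 1 (adjusted p = 0.123 and 0.104). With doxycycline 5 of the 24 were higher and 7 lower in KO, beside 17.9% and 19.1% of all genes. Over the alternatives these counts were 3 to 5 and 4 to 7. With retinoic acid 1 was higher and 12 lower (0 to 3 and 6 to 13), beside 18.8% and 20% of all genes. The list median there was -0.17 beside -0.005. All 3 genes of the list on chromosome 1 were lower in KO in both conditions.

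A further 34 p53 targets, listed apart from the 10 members, were all tested. Among untreated libraries 19 were higher and 2 lower in KO, beside 15.2% and 14.9% of all genes. The median was 0.27 beside 0.02 for all genes. Over 22 alternatives 12 to 20 were higher and 0 to 3 lower. Both genes called lower lie on chromosome 1, and such genes are absent from the alternative fitted without that chromosome. Epha2, an ephrin receptor, was at 319 and 340.3 CPM in WT and 636 and 639.8 in KO (0.95 ± 0.056). Ckap2, a spindle protein gene, differed by 0.78 ± 0.058 and Dcxr, a xylulose reductase gene, by 0.66 ± 0.120. Steap3, a ferrireductase gene on chromosome 1, went the other way, at 55.8 and 57.1 CPM in WT and 18.8 and 19.2 in KO (-1.57 ± 0.074). It was lower in KO also with doxycycline (-2.17 ± 0.067) and with retinoic acid (-1.83 ± 0.070).

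With doxycycline 14 of the 34 were higher and 4 lower in KO cells, beside 17.9% and 19.1% of all genes. The median was 0.16 beside 0.005. Of the 4 lower genes, 3 lie on chromosome 1. Fas, a death receptor, was at 1.36 and 1.77 CPM in WT and 7.33 and 7.53 in KO (2.26 ± 0.264), the largest difference of the list. Epha2 differed by 1.14 ± 0.074 and Ddit4, an mTORC1 inhibitor, by 1.02 ± 0.145. With retinoic acid 5 of the 34 were higher and 17 lower in KO, beside 18.8% and 20% of all genes. The median of the 34 was -0.15 beside -0.005. Dyrk3, a kinase gene (-1.17 ± 0.063), and Phlda3, an inhibitor of Akt (-0.97 ± 0.068), lie on chromosome 1; Pml, the gene of a nuclear body protein, differed by -0.80 ± 0.056 and does not. All 4 genes of the list on chromosome 1 were lower there.

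The responses of the 34 genes were mixed. With doxycycline 13 rose and 16 fell in WT, beside 31.8% and 31.3% of all genes, and 12 rose and 16 fell in KO, beside 31.2% in each direction. Epha2 fell by 3.52 ± 0.069 in WT and fell by 3.33 ± 0.064 in KO. Pml changed by -2.04 and -2.18 and Ak1, an adenylate kinase gene, by -2.19 and -2.0, all passing. Fas rose by 1.85 ± 0.438 in WT and 3.36 ± 0.308 in KO, and the difference of these did not pass (1.51, adjusted p = 0.0915). With retinoic acid 17 rose and 13 fell in WT (15 to 23 and 7 to 13 over the alternatives), beside 41.0% and 32.9% of all genes. There Fas rose by 1.75, Pmaip1, the gene of the BH3-only protein Noxa, by 1.62 and Sesn1, a paralogue of Sesn2, by 1.48, and Epha2 fell by 1.82. In KO cells 14 rose and 18 fell (13 to 20 and 10 to 19), beside 40.9% and 34.6%, with Epha2 at -2.98, Pml at -1.85, Dyrk3 at -1.77 and Fas at 1.67, with a median of -0.23 that was above 0 on the TPM scale (0.32). The interaction with doxycycline was higher for 2 and lower for 9 of the 34, beside 9.11% and 10.0% of all genes. That with retinoic acid was higher for 1 and lower for 18, beside 7.31% and 10.3%. The latter had a median of -0.29 beside -0.03, and 12 to 18 genes passed on the lower side over the alternatives. Pml (-1.26 ± 0.076), Phlda3 (-1.17 ± 0.099), Epha2 (-1.15 ± 0.083) and Dyrk3 (-1.14 ± 0.085) differed most. In the interaction with doxycycline Dcxr (-0.77 ± 0.153), Fdxr, a mitochondrial reductase gene (-0.69 ± 0.168), and Steap3 (-0.59 ± 0.103) were lower and Tnfrsf10b, a death receptor gene, was higher (0.60 ± 0.160). The Tnfrsf10b call was lost without KO untreated replicate 1 (adjusted p = 0.0641).

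**Figure D5:**
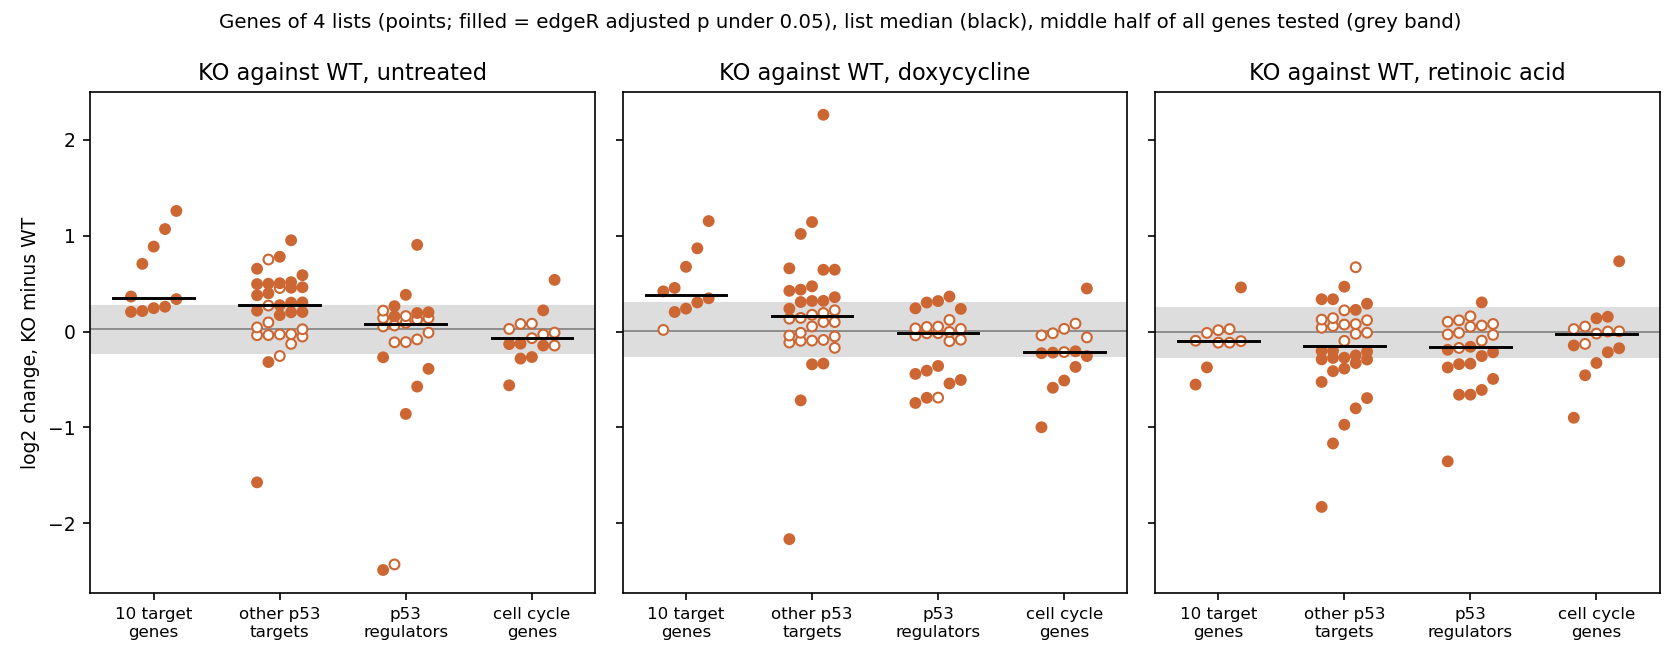
Log2 difference between KO and WT cells for the genes of 4 lists in the 3 conditions (points; filled where edgeR's test passed), with the list median in black and the middle 50% of all genes tested as a grey band. The medians of the 10 members lie at 0.35, 0.38 and -0.10 and those of the 34 other targets at 0.27, 0.16 and -0.15.

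Genes with patterns most like those of Cdkn1a, Mdm2 and Plk2 were sought among 10860 genes by the root mean square difference of centred log2 group means over the 6 groups. For Cdkn1a, whose group means span 2.36 on the log2 scale, they were Cryab, a small heat shock protein gene (0.09), Cmtm3 (0.15) and Prmt2, an arginine methyltransferase gene (0.18). Cryab had means of 3.65 CPM in untreated WT, 3.94 in untreated KO, 11.9 and 18.4 with doxycycline, and 8.76 and 9.17 with retinoic acid. For Mdm2, which spans only 0.71, they were Echdc1 (0.05), Lrrc49 (0.06) and Rnf139 (0.07). For Plk2, which spans 2.36, they were Hyal1, a hyaluronidase gene (0.17), Zfp629 (0.24) and Bbc3 (0.26), itself a member. Hyal1 had means of 5.57 and 11.98 CPM in untreated WT and KO, 10.79 and 20.97 with doxycycline and 13.96 and 10.98 with retinoic acid.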

How the data were processed

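The submitters' processing notes name STAR 2.5.3a, RSEM 1.3.0, DESeq2 1.18.1 and mm10. Which annotation release and strand setting they used is not given in the sources used here. The authors' deposited tables, 1 for each library, hold RSEM expected counts, TPM and effective lengths, per the file headers. Expected counts divide shared reads between genes by a model, and 9.5% to 11.6% of a library's genes had a fractional value. The deposited TPM were used for levels between genes and for 1 alternative test. Libraries held 15799517 to 21441996 counts, with 1.19% to 1.64% from mitochondrial genes. Coordinates are those of GENCODE M21 (GRCm38) and RefSeq.

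Expected counts were rounded and tested with edgeR 4.0.16 (R 4.3.3) by its quasi-likelihood test, with TMM factors, a minimum count of 10 by group and 1 fit of all 12 libraries with 6 group terms, which left 6 residual degrees of freedom. The 9 comparisons were adjusted by Benjamini-Hochberg over 17884 genes at 0.05. Errors of log2 changes are standard errors and intervals are 95%. The pipeline was tested on simulated counts in which 50 genes were changed at each fold in untreated KO. It called 36% of 1.25-fold, 56% of 1.5-fold, 70% of 2-fold and 96% of 4-fold changes. There were 5 false calls among 16852 unchanged genes. Unchanged genes had the same simulated level in every group, whereas 30.0% of genes were called in the real comparison of untreated cells. These rates therefore describe the simulated setting and not the reported tests. Alternatives used DESeq2 1.42.0, limma 3.58.1 on log2(TPM + 1), other size factors and filters, effective-length offsets, a replicate block, fits without chromosome 1 and without each library. No library was a repeat of its replicate: chi-square over degrees of freedom was 1.90 to 6.29 for the 6 replicate pairs.

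The members and lists were chosen with earlier results of these data known. Named genes are the 10 members, Trp53 and Mdm4 throughout, other regulators called in untreated KO against WT cells, the 4 called genes with the largest change of the other p53 target list per comparison, 2 of the cell cycle list, and the 3 genes most like Cdkn1a, Mdm2 and Plk2. Cop1 is listed in the files under its older symbol Rfwd2. Marker lists were stem cell, trophectoderm, primitive endoderm, fibroblast and neural genes; Elf5 and Lum did not pass the count filter. A wider search for p53 sites around each start was planned and is not analysed here. Trp53inp1 and Zmat3 have no promoter window.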

Additional observations from a re-analysis of the deposited data

Results flagged for a closer look

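The results below are given because the response to a treatment differed between KO and WT cells by the interaction term of edgeR's fit (log2 response in KO minus log2 response in WT). That term holds the untreated KO against WT difference with its sign turned, so it is not separate from the differences in untreated cells. Each group holds 2 libraries, too few to look for single libraries that stand apart.

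For retinoic acid the interaction passed for Plk2 (-1.24), Trp53inp1 (-1.002), Btg2 (-0.76), Ccng1 (-0.72), Aen (-0.63), Bbc3 (-0.61), Mdm2 (-0.46), Cdkn1a (-0.44) and Zmat3 (-0.33). In all 9 the response was lower in KO cells. For Trp53inp1 and Btg2 the response passed in opposite directions, a rise in WT and a fall in KO, though on the TPM scale both KO changes were above 0.

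For doxycycline the interaction passed for Trp53inp1 (-0.65), Ccng1 (-0.25), Aen (-0.24) and Btg2 (0.21). Trp53inp1 rose in WT and fell in KO cells, and its interaction passed in all 22 alternatives. The fall in KO was itself near the threshold (-0.15, adjusted p = 0.0485 by edgeR's test). Its call was lost in several alternatives, among them the replicate block and the TPM scale.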

How the results depend on the processing

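Of 90 values (10 members in 9 comparisons), 59 kept their direction and their side of the threshold in every alternative that held them. The other 31 changed in at least 1. There were 22 alternatives, of which the fit without chromosome 1 genes lacks Btg2. Over all alternatives 85 calls were lost, 19 were gained, 7 values changed sign by that rule and 1 went to 0. In the differences between KO and WT, untreated and with doxycycline, all changes so counted were losses of calls.

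With limma on log2(TPM + 1), the setting with the most changes, Sesn2 was at 0 in the doxycycline response of KO cells, and retinoic acid responses changed sign for Mdm2 (0.53) and Sesn2 (0.29) in WT, and for Mdm2 (0.21), Sesn2 (0.084), Trp53inp1 (0.078), Btg2 (0.26), Zmat3 (0.37) and Mdm4 (0.30) in KO. The median of all genes there was 0.43 in WT and 0.42 in KO, against 0.12 and 0.10, and 80.2% and 76.9% of called genes rose, against 55.5% and 54.2%. Members called were then 0 lower in WT, 7 higher and 1 lower in KO, 2 lower with doxycycline in KO, and 5 lower and 0 higher in the retinoic acid and doxycycline interactions. Genes called were 3328 for untreated KO against WT (5369 in the reported fit), 1812 for the doxycycline interaction (3425) and 1983 for the retinoic acid interaction (3157). With DESeq2 the interactions called 2232 and 1941 genes, and with effective-length offsets 1988 and 1761; Trp53bp1 in untreated KO cells then changed sign (-0.043). The cause was not tested.

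Members higher in the doxycycline interaction, 1 as reported, were 0 with DESeq2, effective-length offsets or only the groups compared, and 2 with RLE or upper-quartile factors or a mean of at least 5 CPM; members lower were 1 with upper-quartile factors. Members lower with doxycycline in KO, 4 as reported, were 2 without chromosome 1 genes. Without each library in turn, members higher in the doxycycline interaction were 0 to 2 and members lower with doxycycline in KO were 2 to 4.

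With the replicate block, members lower with doxycycline in KO were 2 (Sesn2, adjusted p = 0.0559, and Trp53inp1, adjusted p = 0.0518, were lost), Cdkn1a passed in the doxycycline interaction (adjusted p = 0.0381) and Btg2 did not (adjusted p = 0.0578). It changed no other member's call, and genes called in untreated cells were 5215. Deviations of same-numbered libraries correlated by -0.27 to 0.15 over 15 pairs of groups, so the numbers were not taken to pair libraries.

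Depth limits genes of few counts: Fas, at 0.249 to 0.973 CPM in untreated cells, had a 95% interval of -0.32 to 1.82 for KO against WT there. The 2 libraries of a group limit every test, and the kit used for retinoic acid libraries cannot be told apart from that treatment.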

Other observations

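Of 15 cell cycle genes listed because p21 and Rb family proteins lower them, 2 were higher and 6 lower in the untreated KO libraries, beside 15.2% and 14.9% of all genes (1 to 2 and 2 to 6 over 22 alternatives). The list median was -0.07 and that of all genes 0.02. Mcm5, a subunit of the replicative helicase, was at 985 and 986 CPM in WT and 647 and 689 in KO (-0.56 ± 0.054), and Plk1, a mitotic kinase, at 116 and 119.5 in WT and 169 and 174 in KO (0.54 ± 0.056). With doxycycline 1 was higher and 8 lower in KO, beside 17.9% and 19.1% of all genes, with a median of -0.21 beside 0.005. Mybl2, a cell cycle transcription factor, was at 242 and 249 CPM in WT and 121 and 125 in KO (-0.998 ± 0.051), and Mcm5 differed by -0.59 ± 0.054. With retinoic acid 3 were higher and 6 lower (1 to 3 and 3 to 7), beside 18.8% and 20% of all genes. Mcm5 differed by -0.90 ± 0.056 there and Plk1 by 0.73 ± 0.057. In the doxycycline responses 13 of the 15 fell in WT (8 to 13 over the alternatives) and 12 in KO (9 to 12), beside 31.3% and 31.2% of all genes. Mybl2 fell by 2.19 in WT and fell by 2.92 in KO. Top2a, a topoisomerase gene, fell by 0.60 in WT and fell by 0.997 in KO, and both interactions passed (-0.73 and -0.40). With retinoic acid 11 fell in each line, beside 32.9% of all genes in WT and 34.6% in KO. On log2(TPM + 1) with limma 5 rose and 7 fell in WT and 6 rose and 5 fell in KO, and the list median in KO was 0.09 in place of -0.40. Mybl2 changed by -2.17 in WT and -2.36 in KO, and Mcm5 by -1.44 and -1.78. The interaction of Mcm5 passed (-0.34, lost with effective-length offsets at adjusted p = 0.0503), and that of Bub1, a checkpoint kinase gene, passed (-0.35) but was lost in most alternatives.

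Other promoter motifs, chosen after the windows were read, were common in the members and in all genes. The CCAAT box (CCAAT, both strands) was in 6 of the 8 members with a window and in 41.1% of all genes, and the GC box (GGGCGG, both strands) was in 7 of 8 and in 38.2%.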
